A study of Homo sapiens with 30 samples.

Results

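Open chromatin was described at 9 genes of the Eph receptor and ephrin family, in the H1 line of human embryonic stem cells and in early neural cells made from it. The genes were the A-class receptors EPHA2, EPHA3, EPHA4, EPHA5 and EPHA7, the B-class receptors EPHB1 and EPHB2, and the ligands EFNA5 and EFNB2. They are 9 of 20033 protein-coding genes on chromosomes 1 to 22, X and Y. A peak was assigned to a gene when it overlapped the gene body, or the 50 kb on either side of it, by at least 1 bp. The peaks of all 10 populations merged into 493444 regions, of which 712 lay in the windows of these 9 genes. On GRCh38 the A-class receptor genes lie at chr1:16124337-16156069 (EPHA2), chr3:89107621-89482134 (EPHA3), chr2:221418027-221574202 (EPHA4), chr4:65319567-65670489 (EPHA5) and chr6:93240020-93419559 (EPHA7). The B-class receptor genes lie at chr3:134795260-135260467 (EPHB1) and chr1:22710838-22921500 (EPHB2), and the ephrin genes at chr5:107376894-107670937 (EFNA5) and chr13:106489745-106535662 (EFNB2).

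Eph receptors are the largest family of receptor tyrosine kinases, and ephrins are their membrane-bound ligands. A-class ephrins hang on a lipid anchor and B-class ephrins cross the membrane, so both receptor and ligand sit on touching cells and signalling often ends in repulsion or sorting of the cells. In the embryonic hindbrain, Eph receptors and ephrins are expressed in stripes of neighbouring segments (rhombomeres) and help to keep these apart, and in the midbrain and forebrain graded EphA receptors and A-class ephrins guide axons to their targets.

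The cells were wild-type H1, a human embryonic stem cell line. Accessible DNA was marked with the Tn5 transposase by the OmniATAC-seq method. Pluripotent cells (hPSC, day 0) were turned into definitive ectoderm (DE, day 1) with A8301, trametinib, C59 and LDN193189, inhibitors of NODAL/activin receptors, of MEK, of WNT secretion and of BMP receptors. DE became anterior neural ectoderm (aNE, day 2) in A8301, LDN193189 and C59, or posterior neural ectoderm (pNE, day 2) in A8301, LDN193189, the retinoic acid receptor agonist TTNPB, FGF2 and the tankyrase inhibitor XAV939. Both day 2 media held thiazovivin. For the 6 day 4 groups, each day 2 population then received a medium for telencephalon (T), midbrain (M) or hindbrain (H) (aNE_T, aNE_M, aNE_H, pNE_T, pNE_M and pNE_H). The forebrain medium of the third day held XAV939, LDN193189 and FGF2, and the make-up of the midbrain and hindbrain media is not given in the sources used here. Cells meant for day 4 were plated more densely in the posterior than in the anterior protocol, so density and origin cannot be told apart. All 10 groups came from 1 cell line, and the labels give 3 biological replicates per group, 30 libraries in all.

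The data are 1 list of peak positions per group, without scores. Replicate error is therefore unknown throughout, and no p-value was computed. Every difference compares lists, not conditions. The lists held between 167792 peaks (aNE) and 313095 peaks (pNE_H) on chromosomes 1 to 22, X and Y. Peak numbers are therefore also given scaled, as peaks per 100000 peaks of the list. A gene was called higher or lower when its scaled number differed by a fold of at least 1.5 between 2 lists that held at least 10 of its peaks together. Read depth is unknown, and in bulk cells a site open in fewer cells and a site less open in each cell cannot be told apart. Marker genes separated the groups weakly by this measure: none of 6 pluripotency, 5 neural, 7 anterior, 8 posterior or 11 other-lineage markers was without a peak in any list. Scaled peaks summed over the pluripotency markers ran from 51.0 in hPSC to 28.8 in pNE_H, and over the neural markers from 35.5 in pNE_H to 52.6 in aNE_T. Over the anterior markers they ran from 40.9 in pNE_H to 60.7 in aNE_T, and over the posterior markers from 73.2 in aNE_M to 102.4 in pNE_M, with 76.3 in pNE_H, 83.4 in aNE_T and 95.5 in hPSC. The other-lineage markers summed to between 78.3 in pNE_H and 100.1 in aNE.

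The start regions that the results turn on are shown first. Each sequence holds the 250 bases before an annotated start, 5′ to 3′ on the gene's strand, from RefSeq on GRCh38.p14. Capitals mark matches, on either strand, to the motifs searched. These were the GC box GGGCGG, the homeodomain motif TAATTA, the SOX motifs ACAATG (first form) and ACAAAG (second form), the nuclear receptor half-sites AGGTCA (direct form) and AGTTCA (variant form), the octamer ATGCAAAT, and GCGTGGGCG for EGR2. The E-box CANNTG was searched too but is not in capitals. The EGR2 motif and the GC box can overlap. All 5 genes shown lie on the minus strand. EPHA5 and EPHA7 are shown because their scaled peak numbers had the largest ratios between the day 2 populations, and EFNB2 because it followed them.
EPHA5, first start, chr4:65670490-65670739: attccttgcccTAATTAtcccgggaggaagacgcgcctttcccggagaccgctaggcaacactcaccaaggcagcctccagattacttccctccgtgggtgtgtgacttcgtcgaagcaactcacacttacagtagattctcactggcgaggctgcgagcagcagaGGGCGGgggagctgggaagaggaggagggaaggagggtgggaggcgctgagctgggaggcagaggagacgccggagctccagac
EPHA7, first start, chr6:93419560-93419809: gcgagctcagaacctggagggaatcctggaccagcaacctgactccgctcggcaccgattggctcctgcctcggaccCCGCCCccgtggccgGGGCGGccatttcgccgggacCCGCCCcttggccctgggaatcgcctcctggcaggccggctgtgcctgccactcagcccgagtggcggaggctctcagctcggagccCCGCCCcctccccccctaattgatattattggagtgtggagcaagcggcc
EFNB2, chr13:106535663-106535912: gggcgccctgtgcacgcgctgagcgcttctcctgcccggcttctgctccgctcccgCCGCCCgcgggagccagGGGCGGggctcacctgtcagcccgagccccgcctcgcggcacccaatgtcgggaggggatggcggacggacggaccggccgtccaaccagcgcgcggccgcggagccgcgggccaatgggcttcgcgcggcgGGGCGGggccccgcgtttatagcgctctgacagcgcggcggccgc
EPHA4 is shown at both annotated starts because its peaks lay over the second of them.
EPHA4, first start, chr2:221574203-221574452: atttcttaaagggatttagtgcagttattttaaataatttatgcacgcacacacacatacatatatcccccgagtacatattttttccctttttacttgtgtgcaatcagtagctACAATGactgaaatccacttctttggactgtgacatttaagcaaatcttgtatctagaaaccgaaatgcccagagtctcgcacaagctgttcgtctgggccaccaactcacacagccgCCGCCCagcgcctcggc
EPHA4, second start, chr2:221572305-221572554: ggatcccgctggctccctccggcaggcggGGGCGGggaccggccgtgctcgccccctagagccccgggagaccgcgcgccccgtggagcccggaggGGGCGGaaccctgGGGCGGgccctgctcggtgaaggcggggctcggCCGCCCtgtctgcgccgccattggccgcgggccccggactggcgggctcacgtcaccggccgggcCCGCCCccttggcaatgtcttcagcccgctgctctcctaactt
EFNA5 is shown because its annotated start was not covered by a peak in most lists.
EFNA5, chr5:107670938-107671187: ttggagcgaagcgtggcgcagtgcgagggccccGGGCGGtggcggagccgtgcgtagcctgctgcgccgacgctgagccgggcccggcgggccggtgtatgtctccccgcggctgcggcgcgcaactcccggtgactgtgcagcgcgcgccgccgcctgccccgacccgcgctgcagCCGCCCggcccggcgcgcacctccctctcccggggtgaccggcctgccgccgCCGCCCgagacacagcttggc

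The GC box was the motif shared most widely. It occurred before 13 of the 14 annotated starts of the 9 genes and was missing at EPHA3, against 53.7% of 22198 starts of protein-coding genes over the same length. Some of these windows overlap: the 2 at EPHB2 are 1 bp apart, and 2 of the 3 at EPHA7 share their match. Counted by gene, 8 of the 9 had a GC box, and the share of all genes counted in this way was not computed. The variant half-site AGTTCA occurred at EPHA5 and EPHA7, each at a second start, against 7.31% of starts. The first SOX form occurred at EPHA4 and EPHB1 (6.92% of starts), and the homeodomain motif at EPHA5 (3.15%). The E-box occurred before 5 of the 14 starts, at EPHA3, EPHA7, EPHB2 and EFNB2, against 58.1% of all starts. The direct half-site, the octamer, the second SOX form and the EGR2 motif were in none of the 14 windows, against 10.5%, 1.59%, 11.6% and 0.955% of all starts. GC content was 84.8% at EPHB2, 79.6% at EFNA5 and 78.4% at EFNB2, where the median start had 62.0%. The 2 EPHA4 starts differed most within a gene, with 43.2% GC before the first and 78.0% before the second.

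Start regions were open from day 0 on. In all 10 lists a peak lay over at least 1 annotated start of 8 of the 9 genes, and the same held for 71.3% of the 15842 protein-coding genes with a start in the table. The lists therefore differed little in whether the family's starts were open, and differed in how far the open stretch reached and in the regions around it.

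EPHA4 encodes a receptor that binds ligands of both classes and is known for its stripes in the hindbrain. The first EPHA4 start, at position 221574202 of chromosome 2, was covered in 0 of the 10 lists, with the nearest peak edge 1 to 217 bp downstream. The second start, 1898 bp downstream, was covered in all 10. The merged region chr2:221571582-221574201 was covered by 1 peak of 2121 bp in aNE, 2214 bp in pNE, 2296 bp in aNE_T, 2495 bp in aNE_M, 2348 bp in aNE_H, 2303 bp in pNE_M and 2348 bp in pNE_H. In hPSC, DE and pNE_T it was instead split into separate peaks, with 891, 488 and 1002 bp over the second start. The open stretch thus ended just short of the GC-poor sequence of the first start shown above.

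EFNA5, an A-class ephrin known for topographic mapping of axons, had its peaks upstream of the annotated start instead. The start itself was covered in hPSC and pNE_M only. In DE and pNE_H the nearest peak ended 95 and 10 bp upstream of the start. In aNE, pNE, aNE_T, aNE_M, aNE_H and pNE_T it ended 576 to 670 bp upstream, in peaks of 1489 to 2321 bp. The 250 bases shown, 79.6% GC, were therefore free of peaks in those 6 lists, while DNA farther upstream was open in every list.

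EPHA7 and EPHA5 encode A-class receptors of the developing forebrain and its axons. At EPHA7 the first-start region, chr6:93418246-93420046, had 1436 bp under peaks in hPSC, 1353 in DE, 1585 in aNE, 1583 in pNE, 1781 in aNE_T, 1801 in aNE_M, 1600 in aNE_H, 1685 in pNE_T, 1551 in pNE_M and 1761 in pNE_H. It was split into separate peaks in hPSC, DE and pNE_M, where the peak over the start itself was 539 to 581 bp wide. At EPHA5 the first-start region, chr4:65669156-65670962, had 1335 bp under peaks in hPSC, 1257 in DE, 1359 in aNE, 1792 in pNE, 1524 in aNE_T, 1678 in aNE_M, 1552 in aNE_H, 1547 in pNE_T, 1318 in pNE_M and 1657 in pNE_H. The pNE list had the widest opening there and DE the narrowest.

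**Figure D1:**
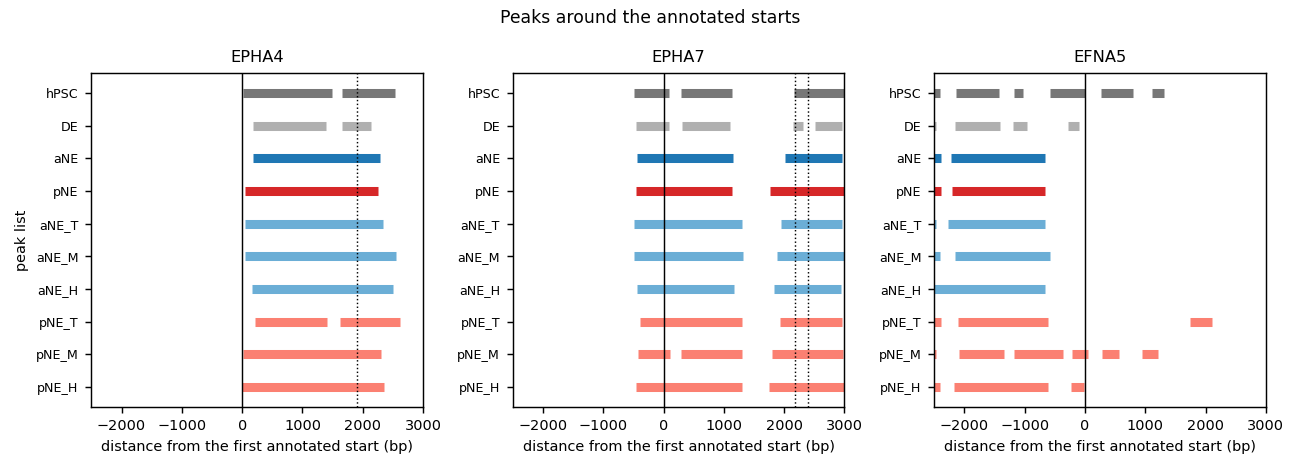
Peaks (horizontal bars) of each of the 10 lists around the annotated starts of EPHA4, EPHA7 and EFNA5, as distance in bp from the first start along the gene. The solid line is the first annotated start and dotted lines are further starts: the EPHA4 peaks begin 1 to 217 bp after the first start, and in 6 lists the EFNA5 peaks end 576 to 670 bp before it.

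The question of how posterior and anterior neural ectoderm differ was taken up on day 2. EPHA5 and EPHA7 had the highest ratios of pNE to aNE, EFNB2 came next, and EPHB2 was the lowest of the 9. EPHA5 had 17 peaks in hPSC, 15 in DE, 10 in aNE, 24 in pNE, 12 in aNE_T, 19 in aNE_M, 23 in aNE_H, 20 in pNE_T, 22 in pNE_M and 33 in pNE_H. Its scaled number was 5.96 in aNE and 11.6 in pNE, a 1.95-fold difference, and 1 of 199 genes of like length had a ratio at least as large. EPHA7 had 12 peaks in hPSC, 19 in DE, 9 in aNE, 21 in pNE, 10 in aNE_T, 16 in aNE_M, 17 in aNE_H, 16 in pNE_T, 19 in pNE_M and 34 in pNE_H. Its scaled number was 5.36 in aNE and 10.1 in pNE, a 1.89-fold difference, with 1 of 196 genes of like length at least as large. These were the 2 members called, both higher in pNE, against 2.75% of 17757 genes called higher and 6.04% called lower.

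The numbers behind these ratios are small. Taken as independent counts, 24 against 10 peaks gave a 95% interval (Wilson, on the share of peaks in pNE) of 0.946 to 4.01 for the scaled ratio of EPHA5, and 21 against 9 gave 0.883 to 4.06 for EPHA7. Both intervals cover counting error only and include 1. EPHA7 was under 1.5 when each list was reduced to its 167792 widest peaks (1.44) or to the peaks wider than its median (1.42), and in covered bases it was at 1.499, just short of the threshold. EPHA5 was between 1.80 and 2.43 under all 8 alternatives.

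EFNB2, a B-class ephrin known from blood vessels and from the hindbrain, had 22 peaks in hPSC, 20 in DE, 15 in aNE, 26 in pNE, 17 in aNE_T, 26 in aNE_M, 25 in aNE_H, 25 in pNE_T, 30 in pNE_M and 36 in pNE_H. The scaled ratio of pNE to aNE was 1.41, below the threshold, with 4 of 182 genes of like length at least as large. Counted over the gene body alone it was 2.11. Its window also holds ARGLU1.

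EPHB2, a B-class receptor known from axon guidance and from sorting of cells in the gut, had 60 peaks in hPSC, 66 in DE, 51 in aNE, 51 in pNE, 57 in aNE_T, 56 in aNE_M, 56 in aNE_H, 57 in pNE_T, 46 in pNE_M and 66 in pNE_H. An equal number of 51 peaks made a smaller part of the longer pNE list, and the scaled ratio was 0.811. Among 198 genes of like length, 31 had a ratio as low or lower. The window of EPHB2 also holds C1QB and LACTBL1.

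For the other 5 genes the pNE to aNE ratios lay between 0.876 and 1.15. EPHA3, an A-class receptor known from axon guidance, had 19 peaks in aNE and 27 in pNE (1.15). EFNA5 had 56 and 75 (1.09), EPHB1, a receptor known from the crossing of optic axons, 48 and 63 (1.06), EPHA2, a receptor known from epithelia, 20 and 26 (1.05), and EPHA4 25 and 27 (0.876). All 5 raw numbers were higher in pNE, whose list is longer. Summed over the 9 genes there were 253 peaks in aNE and 340 in pNE, a scaled ratio of 1.09. The median ratio of the 9 genes was 1.09 and that of all genes tested was 0.91. The medians of the genes of like length ran from 0.904 (EFNB2) to 1.08 (EPHA3), with 1.06 for EPHA5 and 0.988 for EPHA7.

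**Figure D2:**
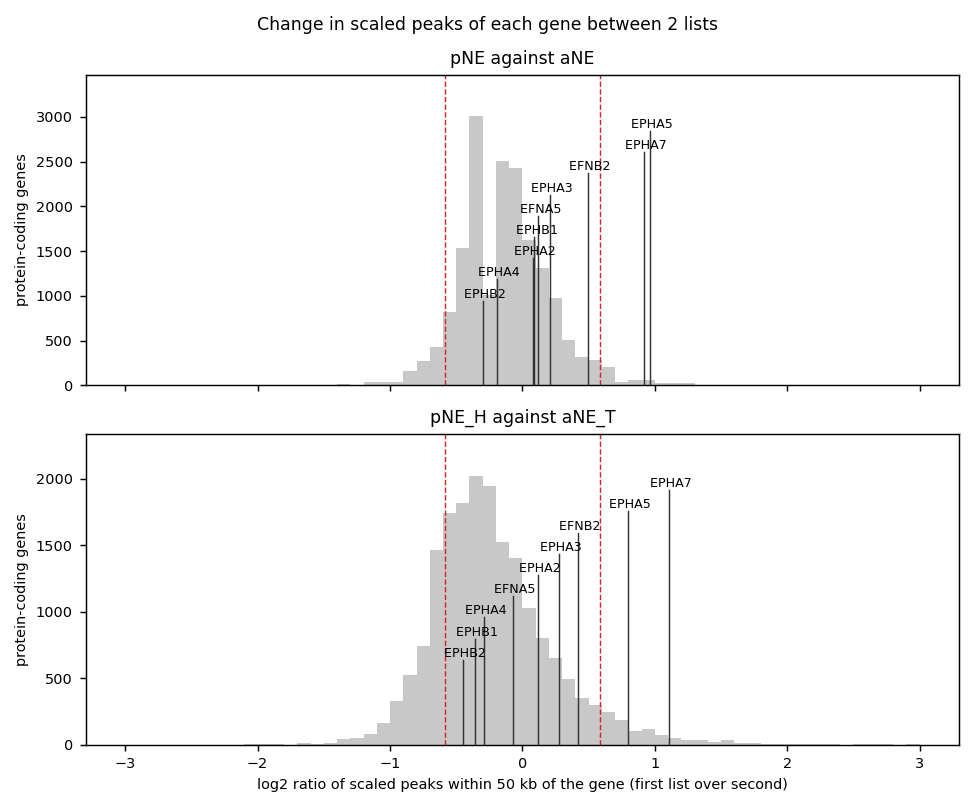
Histograms of the log2 ratio of scaled peaks for all protein-coding genes tested (grey, number of genes), for pNE against aNE (top) and pNE_H against aNE_T (bottom), with each of the 9 genes as a vertical line whose height has no meaning. Dashed lines mark a fold of 1.5 in each direction: EPHA5 and EPHA7 lie beyond the upper one in both panels, and EPHB2 is the lowest of the 9 in both.

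Position by position, 110 regions of the 9 genes had a peak in pNE but none in aNE, and 32 had the reverse. The pNE share of these was 77.5%, against 69.7% over all regions, where the longer pNE list also prevails. At EPHA5 the split was 15 against 0 and at EPHA7 12 against 0. At EFNB2 it was 11 against 1, at EPHA3 8 against 1, at EPHA2 5 against 1 and at EPHB1 19 against 4. EFNA5 had 24 against 10, EPHA4 7 against 5 and EPHB2 9 against 10. EPHB2 was the 1 gene with more aNE regions than pNE regions.

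The widest of the pNE regions at EPHA5, chr4:65552022-65552664, lay 118.1 kb into the gene. It had 571 bp under peaks in pNE, 122 in aNE_T, 599 in aNE_M, 597 in aNE_H and 442 in pNE_H, and none in the other 5 lists. At EPHA7 the widest, chr6:93456666-93457725, lay 37.6 kb upstream of the first start. It was covered over 165 bp in pNE, over 851 to 917 bp in the 3 aNE-derived lists, and over 849 bp in pNE_T, 203 in pNE_M and 389 in pNE_H. It was already open in DE (397 bp). At EFNB2 the widest, chr13:106522810-106523757, lay 12.4 kb into the gene and was open in pNE (508 bp) and in all 6 day 4 lists (122 to 771 bp), but not in hPSC, DE or aNE. The reference tables used here give no exons, so exons and introns are not told apart.

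On the anterior side, the widest aNE region at EPHB2 was chr1:22750276-22750996, 39.8 kb into the gene. Peaks covered 417 bp of it in DE, 627 in aNE, 670 in aNE_T, 295 in aNE_M and 184 in aNE_H. It had no peak in hPSC, pNE or any pNE-derived list. At EPHA4 the widest, chr2:221454350-221455820, 119.1 kb into the gene, had 577 bp in hPSC, 1297 in DE, 1206 in aNE and 1166 in aNE_T. It had 260 bp in aNE_M, 409 in aNE_H, 1003 in pNE_M and 109 in pNE_H, and none in pNE and pNE_T.

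Regions open in pNE but not in aNE on day 2 did not divide by origin alone on day 4. Of the 15 EPHA5 regions with a peak in pNE but not aNE, aNE_T kept or gained 4, aNE_M 9 and aNE_H 11, while pNE_T held 6, pNE_M 6 and pNE_H 10. Of the 12 EPHA7 regions, 3, 6 and 8 were open in the aNE-derived lists (telencephalon, midbrain, hindbrain medium), and 3, 5 and 7 in the pNE-derived ones. Of the 11 EFNB2 regions, 4, 7 and 9 were open in the 3 aNE-derived lists and 6, 9 and 10 in the 3 pNE-derived ones, in the same order of media. In each of these 3 genes and in both origins, hindbrain medium had at least as many of these regions open as telencephalon medium. Among aNE-derived lists the reverse was seen at EPHA4 (3 of 7 regions in aNE_T and 2 in aNE_H) and at EPHB1 (13 of 19 and 12). Over the 110 regions of the 9 genes the share open was 42.7% in aNE_T, 65.5% in aNE_M, 70.9% in aNE_H, 43.6% in pNE_T, 52.7% in pNE_M and 73.6% in pNE_H. The same shares over all 62762 such regions were 38.1%, 63.9%, 60.8%, 41.5%, 48.0% and 72.9%. Before day 2 the shares open in hPSC and DE were 31.8% and 35.5% for the 9 genes and 31.6% and 36.2% for all regions. In both sets telencephalon medium had the smallest share in each origin, and pNE_H is the longest list. Among aNE-derived lists hindbrain medium was highest for the 9 genes and midbrain medium for all regions, and this difference was not tested.

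**Figure D3:**
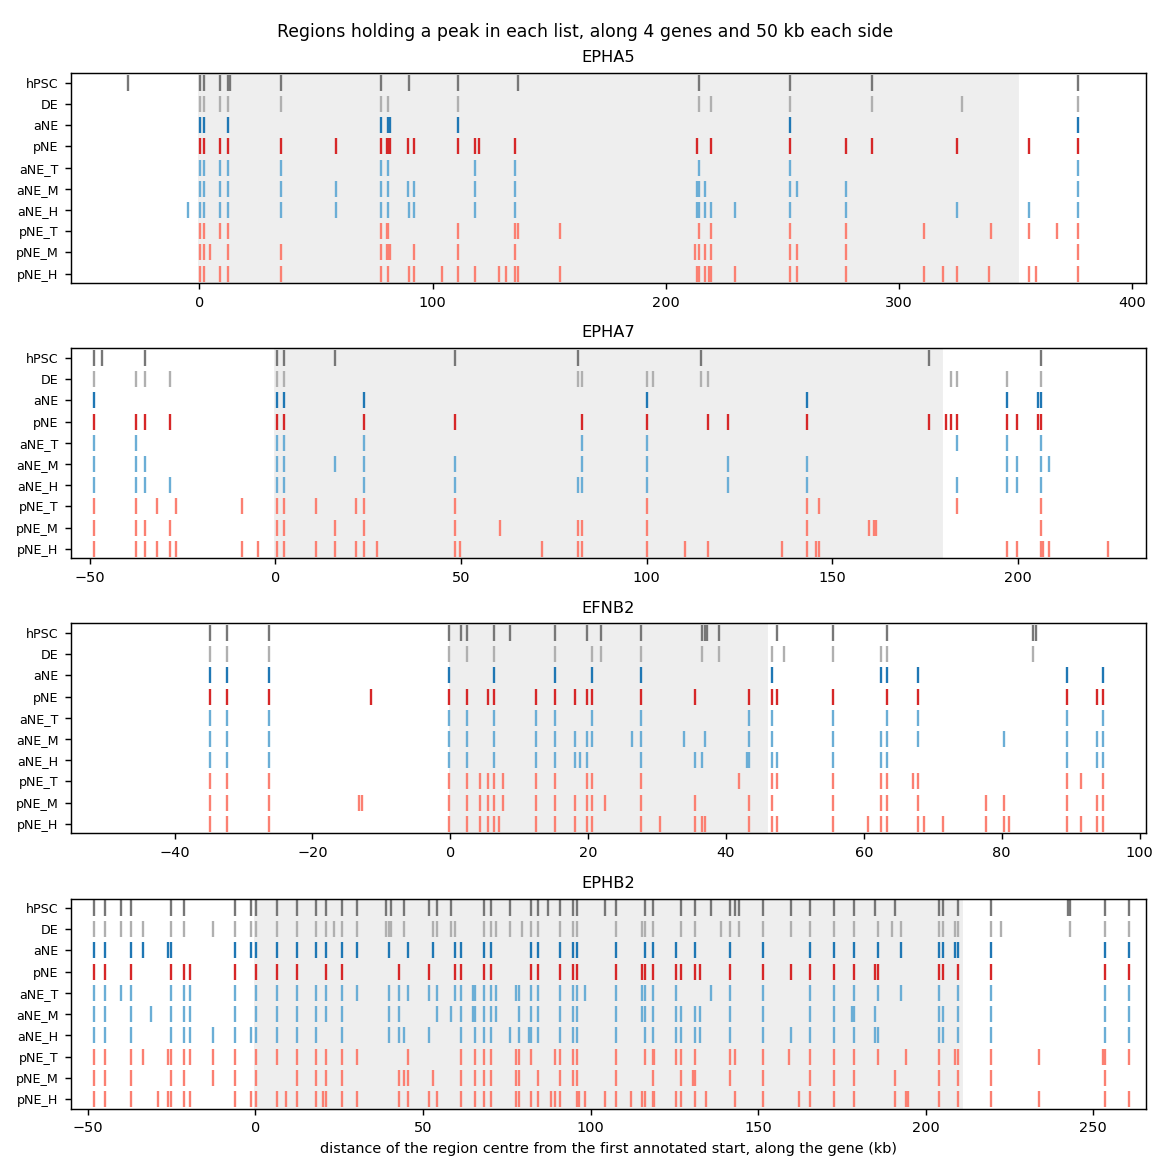
Regions holding a peak (ticks) in each of the 10 lists along EPHA5, EPHA7, EFNB2 and EPHB2, as distance in kb of the region centre from the first annotated start, with the gene body shaded. At EPHA5 and EPHA7 the aNE row (9 and 9 regions) and the aNE_T row (from 12 and 10 peaks) are sparse, while EPHB2 is densely filled in every row.

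A pattern seen in the values joins day 2 and day 4. At EPHA5, EPHA7 and EFNB2 the scaled numbers of aNE and aNE_T were both below those of the other 6 lists of days 2 and 4. At EPHA5 the higher of aNE and aNE_T was 6.07 and the lowest of the other 6 was 8.69 (aNE_M). At EPHA7 these were 5.36 and 7.32, and at EFNB2 8.94 and 11.5. This held for 3 of the 9 genes and for 3.71% of all genes, and the pattern was chosen after the values were seen. The pattern leaves out hPSC and DE, which were in part as low. Their scaled numbers were 7.96 and 6.06 at EPHA5, 5.62 and 7.67 at EPHA7, and 10.3 and 8.08 at EFNB2. In covered bases per Mb covered by the list, EPHA5 was at 41.9 in aNE and 53.6 in aNE_T and between 72.3 and 95.6 in the other 6. EPHA7 was at 59.3 and 66.9 against 75.4 to 96.8, and EFNB2 at 93.0 and 92.9 against 111 to 119. By this measure hPSC and DE were at 58.9 and 46.4 for EPHA5, 52.6 and 56.0 for EPHA7, and 83.5 and 70.9 for EFNB2. EPHB2 ran the other way in scaled peaks, with its highest values in aNE (30.4) and aNE_T (28.8). The share of all genes with this reverse pattern was not counted. In covered bases EPHB2 was at 285 in aNE and 289 in aNE_T, and pNE_T was also at 289.

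By origin, no member had all 3 pNE-derived lists on one side of all 3 aNE-derived lists, against 5.26% of 19242 genes with all 3 higher and 18.9% with all 3 lower in the pNE-derived lists. EFNA5 came nearest, on the lower side, with scaled numbers of 34.9 to 40.2 in the aNE-derived and 33.2 to 34.9 in the pNE-derived lists. EPHA7 ran from 5.06 to 8.34 and from 7.44 to 10.9. EPHA5 overlapped because aNE_H (11.3) was above all 3 pNE-derived lists (9.30 to 10.5). Taken medium by medium, EPHA5 was called higher in pNE_T than in aNE_T (1.53-fold), the 1 call in telencephalon medium, against 3.87% of genes called higher and 7.7% called lower. In covered bases this ratio was 1.35, under the threshold. No member was called in midbrain medium (4.04% higher, 5.51% lower) or in hindbrain medium (3.78% higher, 14.9% lower).

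By medium, EPHA5 and EPHA7 were higher in hindbrain than in telencephalon medium when the cells came from aNE. EPHA5 went from 12 peaks in aNE_T to 23 in aNE_H (1.86-fold scaled) and EPHA7 from 10 to 17 (1.65-fold). These were the 2 members called, against 3.67% of genes higher and 5.98% lower. In covered bases EPHA5 was at 1.62, and EPHA7 was under the threshold at 1.39. EFNB2 went from 17 to 25 (1.43-fold), below the threshold, with 3 of 185 genes of like length at least as large. In cells from pNE no member was called between pNE_H and pNE_T (3.33% higher, 7.73% lower). EPHA7 was nearest, with 16 and 34 peaks (1.46-fold), and EPHA5 had 20 and 33 (1.13-fold). Whether the response to medium differed between origins was not tested, since each combination of origin and medium is 1 list.

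The last contrast set pNE_H, posterior cells in hindbrain medium, against aNE_T, anterior cells in telencephalon medium. EPHA7 had 34 against 10 peaks (2.15-fold scaled) and EPHA5 33 against 12 (1.74-fold), and these 2 were called higher, against 5.24% of genes called higher and 19.6% called lower. EFNB2 followed at 1.34 and EPHA3 at 1.21. EPHB2 was lowest at 0.732, from 66 and 57 peaks. In covered bases the ratio of EPHA7 was 1.45, under the threshold, and that of EPHA5 was 1.66. The median ratio was 1.08 for the 9 genes and 0.812 for all genes tested, where the medians of the genes of like length ran from 0.828 (EFNB2) to 1.08 (EPHB1). The contrasts share lists: aNE_T is the second list in this one and in the telencephalon and aNE-derived contrasts above.

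**Figure D4:**
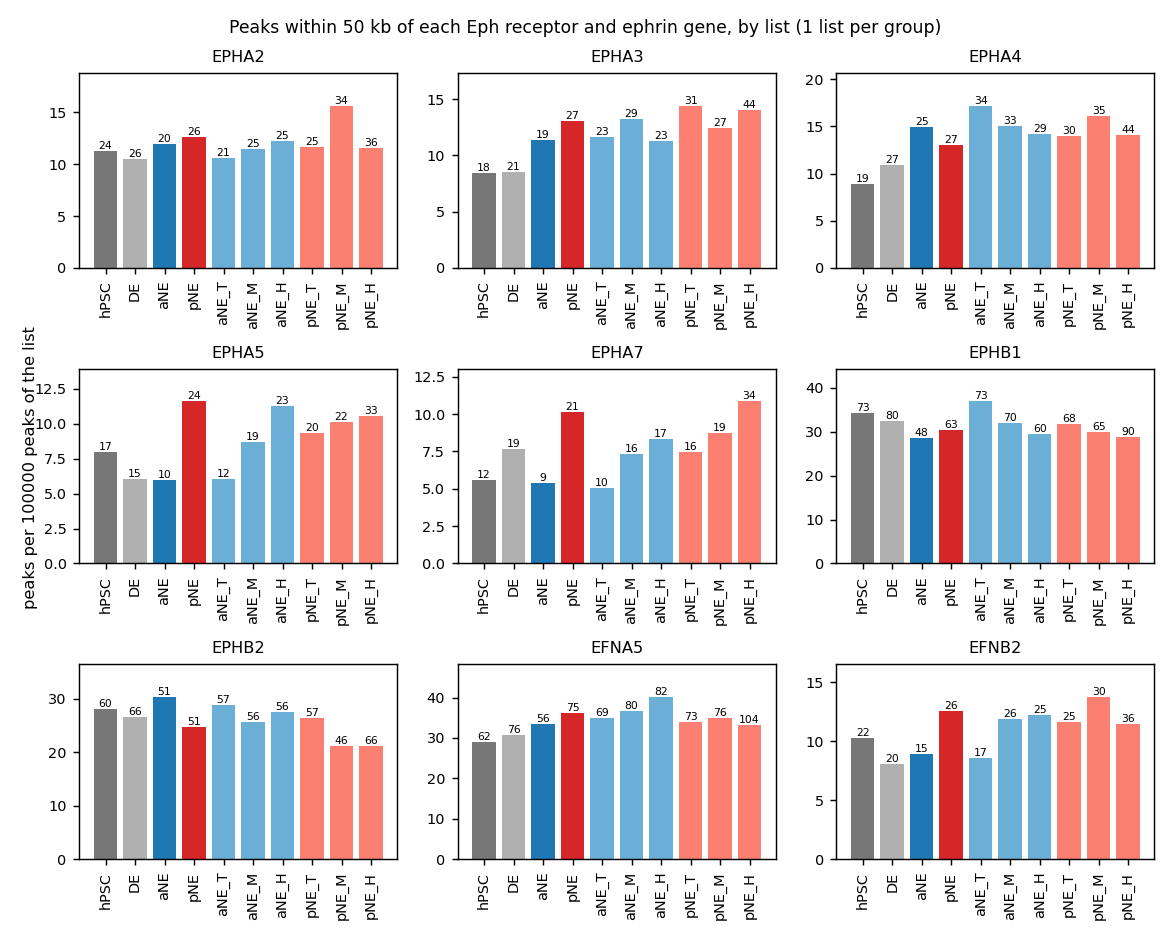
Bars give the peaks of each gene per 100000 peaks of the list for the 10 lists, 1 list per group, with the raw number of peaks above each bar (grey hPSC and DE, blue aNE and its derivatives, red pNE and its derivatives). EPHA5 and EPHA7 are lowest on days 2 and 4 in aNE (10 and 9 peaks) and aNE_T (12 and 10), and EPHA3 and EPHA4 are lowest in hPSC and DE.

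The earlier steps were compared in the same way. Between DE and hPSC no member was called (2.67% of genes higher, 3.5% lower). EPHA7 was nearest with 12 peaks in hPSC and 19 in DE (1.37-fold), and EPHA5 was lowest with 17 and 15 (0.761). Between aNE and DE no member was called either (2.29% higher, 4.25% lower). EPHA4 had 25 peaks in aNE and 27 in DE (1.37-fold scaled), with 2 of 195 genes of like length at least as large, and EPHA7 had 9 and 19 (0.699). Between pNE and DE 3 members were called higher and none lower, against 3.39% and 8.09% of genes: EPHA5 with 24 and 15 peaks (1.92-fold), EFNB2 with 26 and 20 (1.56-fold) and EPHA3 with 27 and 21 (1.54-fold). In covered bases these ratios were 2.06, 1.59 and 1.34, so that EPHA3 was under the threshold. Among genes of like length, 2 of 199, 5 of 190 and 15 of 200 had scaled ratios at least as large.

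EPHA3, EPHA4 and EFNA5 had their lowest scaled numbers in hPSC and DE and were higher in neural cells of either origin. EPHA3 had 18 peaks in hPSC, 21 in DE, 19 in aNE, 27 in pNE, 23 in aNE_T, 29 in aNE_M, 23 in aNE_H, 31 in pNE_T, 27 in pNE_M and 44 in pNE_H, or 8.43 and 8.48 scaled in hPSC and DE against 11.3 to 14.4 in the other 8. EPHA4 had 19 peaks in hPSC, 27 in DE, 25 in aNE, 27 in pNE, 34 in aNE_T, 33 in aNE_M, 29 in aNE_H, 30 in pNE_T, 35 in pNE_M and 44 in pNE_H, or 8.90 and 10.9 against 13.1 to 17.2. EFNA5 had 62 peaks in hPSC, 76 in DE, 56 in aNE, 75 in pNE, 69 in aNE_T, 80 in aNE_M, 82 in aNE_H, 73 in pNE_T, 76 in pNE_M and 104 in pNE_H, or 29.0 and 30.7 against 33.2 to 40.2. These 3 of 9 genes had all 8 neural lists above both early ones, as had 3.33% of all genes. None had all 8 below, as had 12.6%. Setting the 8 neural lists against both early ones was not among the comparisons planned beforehand.

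EPHB1 and EPHA2 followed neither pattern. EPHB1 had 73 peaks in hPSC, 80 in DE, 48 in aNE, 63 in pNE, 73 in aNE_T, 70 in aNE_M, 60 in aNE_H, 68 in pNE_T, 65 in pNE_M and 90 in pNE_H, a scaled range of 28.6 in aNE to 36.9 in aNE_T. EPHA2 had 24 peaks in hPSC, 26 in DE, 20 in aNE, 26 in pNE, 21 in aNE_T, 25 in aNE_M, 25 in aNE_H, 25 in pNE_T, 34 in pNE_M and 36 in pNE_H, a scaled range of 10.5 in DE to 15.6 in pNE_M. Their windows also hold CEP63 and ARHGEF19.

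EPHB1 and EFNA5, the genes with the most regions (140 and 151), held most of the regions that followed origin on day 4. Of 20 regions open in all 3 pNE-derived lists and no aNE-derived list, 7 were at EPHB1 and 6 at EFNA5, and of 6 regions of the reverse kind 3 were at EPHB1. Such regions made up 2.81% and 0.843% of the 712, against 2.33% and 0.633% of all regions. As a share of each gene's own regions, the first kind made up 5.0% at EPHB1, 4.55% at EPHA2, 3.97% at EFNA5 and 3.64% at EFNB2. At the other genes it made up at most 2.13%. At EPHB1, chr3:135112977-135113769 had 379 bp under peaks in pNE_T, 273 in pNE_M and 793 in pNE_H, and was open in no other list. The reverse region chr3:135040355-135041469, 245.7 kb into EPHB1, was open in hPSC, DE, aNE, pNE and the 3 aNE-derived lists (236 to 1115 bp) and in no pNE-derived list. At EFNA5, chr5:107342399-107343063, downstream of the gene, had 160 bp in pNE, 567 in pNE_T, 516 in pNE_M and 659 in pNE_H, and none elsewhere.

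Gene length sets how many peaks a window can hold, so each gene was placed among the 200 protein-coding genes nearest to it in length. EFNA5 was peak-rich in every list, at the percentiles 95.8 to 100, with 56 to 104 peaks where the median gene of like length had 25.5 to 50.0. EPHB2 was at 92.5 to 98.2, EPHA2 at 88.5 to 100, EPHB1 at 81.8 to 90.2 and EFNB2 at 71.0 to 99.5. EPHA5 was peak-poor in every list, at 3.0 to 18.0, although its gene spans 350.9 kb, and EPHA3, with 374.5 kb, was at 9.25 to 31.2. EPHA7 ran from 9.75 in aNE_T to 47.5 in pNE_H. EPHA4 moved most, from 35.5 in hPSC and 48.2 in DE to between 72.0 and 90.2 in the neural lists. EPHA5 and EPHA7, which had the largest scaled ratios of pNE to aNE, were below the middle of their length class even in pNE (18.0 and 42.5).

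**Figure D5:**
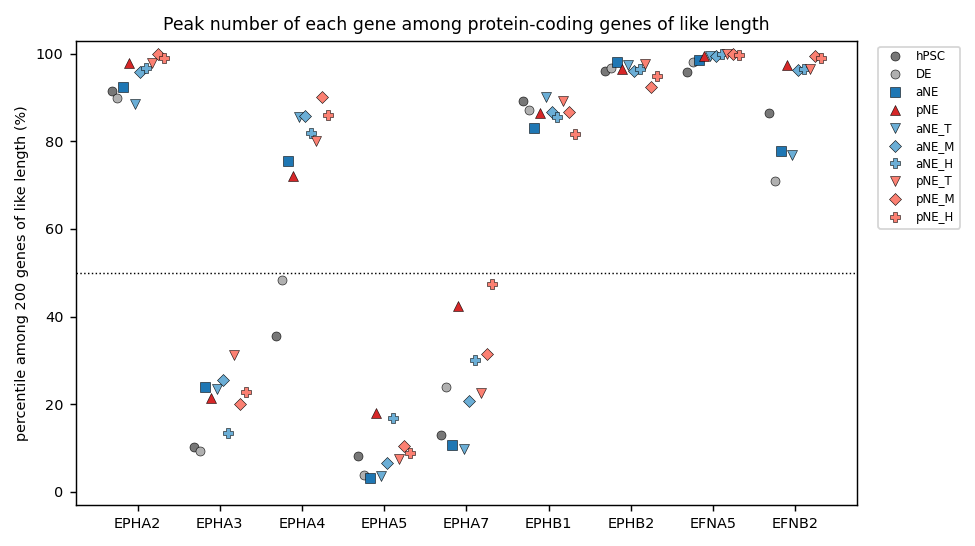
Percentile of each gene's number of peaks among the 200 protein-coding genes nearest in length, for each of the 10 lists (symbols, 1 value per list), with the dotted line at the median. EFNA5 stays at 95.8 or above and EPHA5 at 18.0 or below, and EPHA4 lies under the line in hPSC and DE (35.5 and 48.2) and above it in the 8 neural lists.

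The rest of the pathway was looked at by the same rule. Between pNE and aNE none of 7 other Eph receptors, 6 other ephrins and 19 matched transducers and partners was called. Of all genes 2.75% were called higher and 6.04% lower, and with so few genes having none called is close to these shares. The lowest were EPHA8, a receptor of the A class, with 26 peaks in aNE and 22 in pNE (0.686), and EPHA10 with 21 and 20 (0.773). The highest of these receptors, ephrins and transducers were ABL2, a kinase acting on the cytoskeleton, with 8 and 13 peaks (1.32), and EPHA6, an A-class receptor, with 24 and 36 (1.22). Between pNE_H and aNE_T, EPHA6 was called higher, with 24 peaks in aNE_T and 81 in pNE_H (2.13-fold scaled). The receptors EPHA8 (0.574), EPHA10 (0.664) and EPHB6 (0.460) and the ephrins EFNA1 (0.597), EFNA3 (0.603) and EFNA4 (0.664) were called lower. Their raw numbers in aNE_T and pNE_H were close at EFNA1 (18 and 17) and EPHA8 (22 and 20), and further apart at EPHB6 (11 and 8). The 3 ephrin genes are neighbours on chromosome 1 and share peaks. Of the transducers, NCK1 (1.72) and RASA1 (1.74) were called higher and CHN1 (0.648) and RHOA (0.632) lower. The calls higher rest on few peaks in aNE_T, 7 at NCK1 and 4 at RASA1. Of all genes 5.24% were called higher and 19.6% lower in this contrast. EPHA6 was also the 1 receptor called higher in pNE-derived cells in every medium, at 1.72, 1.64 and 1.55 in telencephalon, midbrain and hindbrain medium. In these media 3.87%, 4.04% and 3.78% of all genes were called higher. The share called higher in all 3 was not counted, and EPHA6 was picked out after the calls were seen.

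Over the 10 lists the scaled numbers of EPHA5 were most like those of EFNB2 within the family (Pearson r = 0.895) and of EPHA7 (0.805), while EPHA7 and EPHB2 ran against each other (-0.834). These are descriptions over the same 10 lists, whose lengths enter every value. On other chromosomes the genes most like EPHA5 were FAM110B (0.968) and MYL1 (0.954), and those most like EPHA7 were CYP2C8 (0.948) and ZDHHC15 (0.933). For EFNB2 they were RGS7 (0.949) and PI15 (0.946), and for EFNA5 CROT (0.975) and TRIM49D2 (0.942). EPHA3 was most like DCC (0.95) and PDE1A (0.949), EPHA4 like OR2AP1 (0.931) and SOX6 (0.926), and EPHA2 like TRIO (0.960) and NMD3 (0.943). EPHB1 was most like GBX2 (0.956) and ACP4 (0.929), and EPHB2 like RNF166 (0.968) and MIF4GD (0.964). Each of these was picked as a highest value among 17026 to 18624 genes, of which 5 to 94 per member had r over 0.9. Some rest on few peaks, such as ZDHHC15 with 1 in aNE and 7 in pNE_H, and OR2AP1 with 3 and 5.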

How the data were processed

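The values analysed were the start and end positions of peaks as the authors deposited them, 1 list per group with no score or header, and lists were matched to groups by population name. The submitters' processing notes name hg38 and FastQC, Bowtie2, MACS2, bedtools, featureCounts, edgeR and deepTools, with no role or version. How the 3 replicates were combined and the peak threshold are not given in the sources used here, and either would move every peak number. No deposited column held counts or signal, so depth is unknown.

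Per gene window, peaks were counted on the 22 autosomes, X and Y (GRCh38.p14 RefSeq gene table, 50 kb each side, overlap of at least 1 bp), scaled to 100000 peaks of the list and, for regions, merged over the 10 lists. All 9 genes were named. For other pathway genes, those past a fold of 1.5 between pNE and aNE or pNE_H and aNE_T and the 2 most extreme in each direction were named. For regions, the widest of each class was used, and for like genes the 2 with the highest correlation on other chromosomes among genes with at least 30 peaks. Of 20 transducers in the list 19 were matched. A further list, of upstream factors, is not reported here. Starts and promoters came from RefSeq: 4191 genes had none in the table. The members, lists and rules were chosen with earlier results of these data known. Alternatives were other windows, reduced lists, covered bases and merged regions. The counting code was tested on simulated lists. Python 3.11.15, numpy 2.4.6, pandas 2.3.3, scipy 1.17.1 and matplotlib 3.10.9 were used.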

Additional observations from a re-analysis of the deposited data

Results flagged for a closer look

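At 4 of the 9 genes the scaled number of peaks moved in opposite directions between telencephalon and hindbrain medium in the 2 origins. The ratio of hindbrain to telencephalon medium was 1.15 in aNE-derived and 0.99 in pNE-derived lists at EPHA2, 0.827 and 1.01 at EPHA4, 1.15 and 0.979 at EFNA5, and 1.43 and 0.99 at EFNB2. With 1 list per group these differences between origins were not tested, and the pNE-derived ratios lie between 0.979 and 1.01, close to no change. Opposite directions were found at 40.3% of 19106 genes.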

How the results depend on the processing

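Of 156 values recomputed under the alternatives, 153 stayed within the counting interval of the main value, or, for counts, within a factor of 1.5 of it. The other 3 were counts of members past a fold of 1.5, which went from 2 (EPHA5 and EPHA7) to 1 (EPHA5). They were pNE against aNE over the 167792 widest peaks per list (1), the same contrast in covered bases (1), and pNE_H against aNE_T in covered bases (1). The count for pNE against aNE was 3 with the gene body alone and with 20 kb on each side, where EFNB2 was called too (2.11 and 1.62). With the peaks of each list wider than its median the count for pNE against aNE was again 2, but the genes were EPHA5 and EFNB2. The count of genes with aNE and aNE_T both below the other 6 lists of days 2 and 4 was between 2 and 4 under the alternatives. That comparison was chosen after seeing the data, and EPHA5 was among the genes each time. No paired analysis was possible because each group has 1 pooled list and no value per library, and leaving out a replicate was not possible for the same reason. Peak numbers of 9 to 34 at EPHA5 and EPHA7 limit the precision of every ratio there. The counting intervals of single genes were wide, for example 0.753 to 2.63 for pNE against aNE at EFNB2. The alternatives also reuse the same peaks, so staying within such an interval is a weak check.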
